A study of Homo sapiens with 6 samples.

Results

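The genes of 10 factors that act in, or are linked to, late assembly of the small (40S) ribosomal subunit were followed in MDA-MB-231 cells after depletion of one of them, BYSL. The 10 genes were BYSL, LTV1, NOB1, PNO1, TSR1, RIOK1, RIOK2, RIOK3, RRP12 and CINP. They were taken by symbol from a table of 29538 genes, each matched 1 entry, and all 10 were among the 16412 genes that passed the filter on low counts. MDA-MB-231 is an established human breast cancer line of mesenchymal character. The siBYSL group was 3 cultures transfected with a single siRNA against BYSL, and the siNC group was 3 cultures given a negative-control siRNA, at 160 pmol per well with 4 µL RNAiMAX in both groups. The medium was changed at 6 h and RNA was harvested at 48 h, and the labels call the 3 cultures of each group biological replicates of this one line. Only one siRNA against BYSL was used, and no rescue of BYSL is among the samples.

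The 40S subunit is assembled on a precursor rRNA in the nucleolus, exported as a pre-40S particle and finished in the cytoplasm, where a last cut forms the end of 18S rRNA. Bystin, the BYSL protein, binds the particle in the nucleus and leaves it in the cytoplasm, together with LTV1. TSR1, RIOK2, PNO1 and NOB1 ride on the same particle, covering sites that mature subunits use for translation, and RIOK1 acts at the last steps. High demand for ribosomes is a common feature of proliferating cancer cells.

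The sequences below show where the siRNA acts on BYSL and which letters of the other members could pair with its seed, bases 2 to 8 of a strand, which are in capitals in the 2 siRNA strands. In the BYSL transcript the capitals are the 19 bases paired by the guide strand.
guide (antisense) strand: uAUUCAGCaacgucaucuctt
passenger (sense) strand: gAGAUGACguugcugaauatt
BYSL transcript at the target site: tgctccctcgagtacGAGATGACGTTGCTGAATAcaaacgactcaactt

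The target lies at chr6:41931467-41931485 on the plus strand of GRCh38. It starts at base 776 of the coding sequence and falls in exon 5 of BYSL-201, a transcript of 7 exons in GENCODE 29. Of 206694 annotated transcripts, 0 from another gene held all 19 bases, and in the other 9 members the longest unbroken run shared with the target was 6 to 9 bases. Seed matches were then counted in the longest protein-coding transcript of each member. The guide heptamer GCTGAAT was in the 3′ UTR of 0 of the 10 members, and of 11.7% of the 13013 tested genes with a 3′ UTR. It was present once each in the coding sequences of RRP12 and TSR1, besides the target itself. Both RRP12 and TSR1 were lower in siBYSL (log2 fold change -0.43 and -0.21). PNO1 and NOB1 were lower too (-0.60 and -0.40) and held 0 guide heptamers in these transcripts. RRP12 and TSR1 have the longest coding sequences of the 10 (3894 and 2415 bases). The share of all genes with a match in the coding sequence was not counted.
RRP12, coding sequence, chr10:97358944-97358970, minus strand: tatgcctgggGCTGAATacaaggccaa
TSR1, coding sequence, chr17:2333046-2333072, minus strand: cagttaccaaGCTGAATggattttgga

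The passenger heptamer GTCATCT was in the 3′ UTR of 3 members, against 11.8% of the same 13013 genes. Of these 3 genes, NOB1 and TSR1 were lower and RIOK1 was higher in siBYSL, as described below. Whether these letters are bound in the cells was not tested.
NOB1, 3′ UTR, chr16:69741957-69741983, minus strand: tgctgcttagGTCATCTcaaggctgat
TSR1, 3′ UTR, chr17:2323173-2323199, minus strand: actggtagcaGTCATCTgcatttgagg
RIOK1, 3′ UTR, chr6:7417843-7417869, plus strand: cccatctgagGTCATCTgattataagg

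Libraries held 27754883 to 32088817 counts in siBYSL and 28606048 to 30476744 in siNC. Library siBYSL 3 stood apart from its group: the chi-square per degree of freedom over tested genes was 22.1 for the pair of siBYSL 1 and 3, 13.6 for the pair of siBYSL 2 and 3, 3.44 for siBYSL 1 and 2, and 2.48 to 4.70 for the siNC pairs. Of 6 markers of the line 4 were lower (VIM, AXL, CAV1 and MSN) and 2 higher (CD44 and LOX) in siBYSL; VIM stood at 2090 CPM in siBYSL and 2400 CPM in siNC (counts scaled by TMM-adjusted library size), and CD44 at 894 CPM in siBYSL and 782 CPM in siNC. ESR1, PGR and KRT20 were under 1 CPM in every library. The 7 luminal and epithelial markers summed to 105 to 108 CPM in siBYSL and 80.9 to 87.3 CPM in siNC, with CDH1 and EPCAM among those higher in siBYSL; their part in the results was not tested. In bulk RNA, fewer cells that express a gene and less of its RNA per cell cannot be told apart.

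Of the 10 genes, 5 fell and 1 rose: BYSL, PNO1, RRP12, NOB1 and TSR1 were lower, RIOK1 was higher, and LTV1, RIOK2, RIOK3 and CINP did not pass the test. Calls are at an adjusted p under 0.05 in the edgeR quasi-likelihood test over all genes. Without BYSL, the siRNA target, 4 of 9 were lower and 1 was higher, and the TSR1 call among these depended on the setting, as given below. Over all genes tested, 18.4% were lower and 18.5% higher by the same rule, 36.9% in all. In the same 6 members, the target BYSL included, every siBYSL library lay on one side of every siNC library. Over all genes tested, 24.9% were separated in this way downwards and 24.7% upwards, 49.6% in all, so such separation was common. The median log2 fold change of the 9 members other than BYSL was -0.04, beside 0.007 for all genes tested, and the sign of this small median changed with scaling and without siBYSL 3.

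**Figure D1:**
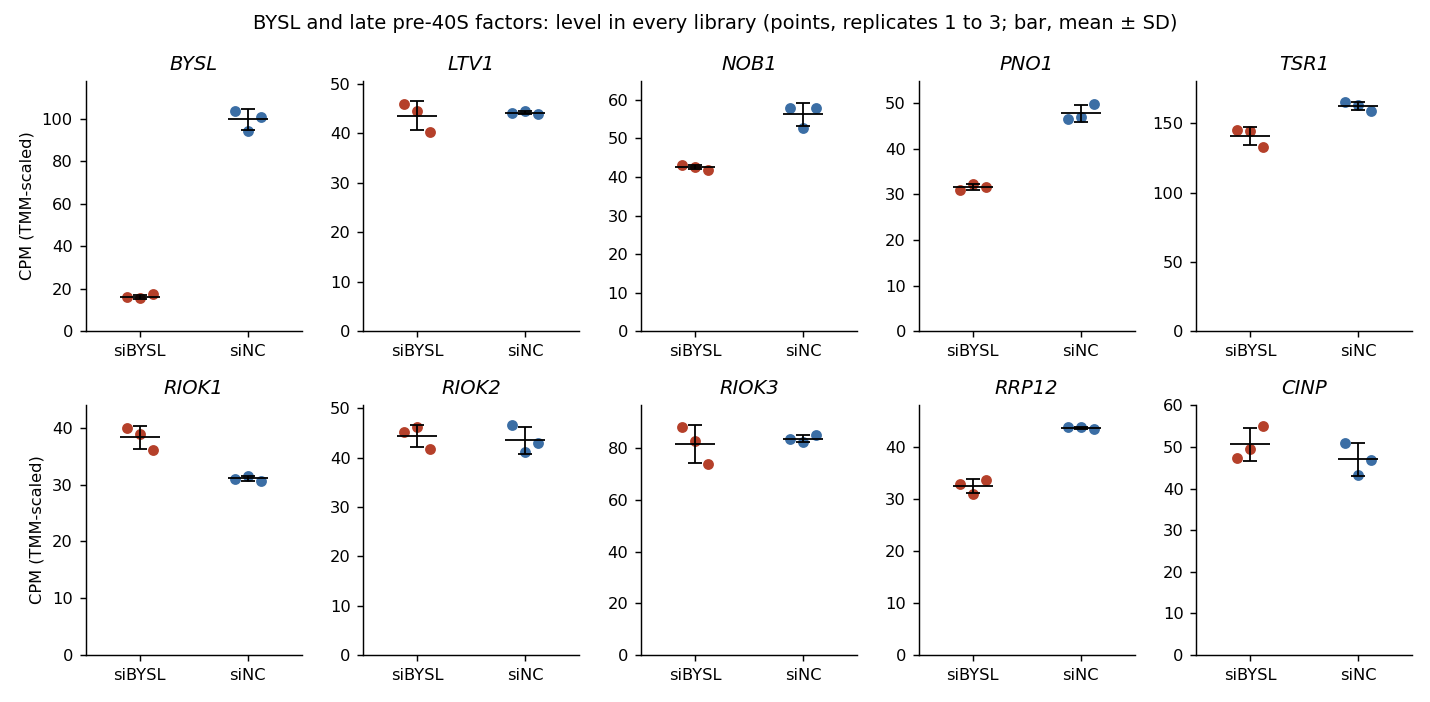
CPM (TMM-scaled, vertical axes from 0) of each of the 10 genes in the 3 siBYSL libraries (left in each panel) and the 3 siNC libraries (right), with mean and SD. BYSL, PNO1, RRP12, NOB1 and TSR1 lie lower in every siBYSL library than in any siNC library, RIOK1 lies higher, and the other 4 genes overlap.

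BYSL, the siRNA target, had 15.9, 15.7 and 17.4 CPM in siBYSL 1 to 3, against 104, 94.5 and 101 CPM in siNC 1 to 3. The groups were far apart, and each library followed its label. Its log2 fold change was -2.61 (95% interval -2.76 to -2.46), so 16.4% of the siNC level remained (interval 14.8% to 18.1%). Only 3 of the 16412 genes had a lower log2 fold change. siBYSL 3 kept the highest BYSL level of its group, at -2.52 against the siNC mean on the log2 scale, beside -2.65 and -2.67 in siBYSL 1 and 2. By the mean absolute difference over the 6 libraries of log2 CPM from the siNC mean, the genes most like BYSL among 9654 protein-coding genes of 10 CPM or more were IL11 (0.40), IDH1 (0.40) and CDKN1A (0.44). Their log2 fold changes were -1.86, -1.88 and -1.78, and IDH1 and CDKN1A carried the guide heptamer in their 3′ UTR while IL11 did not.

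The pair that works at the cut site of the precursor rRNA fell together. PNO1 binds the rRNA beside that site, and NOB1 is the endonuclease that makes the cut. PNO1 had 31.0, 32.3 and 31.5 CPM in siBYSL 1 to 3 and 46.4, 47.0 and 49.8 CPM in siNC 1 to 3. All 3 siBYSL values lay within a narrow band well under the siNC values. The log2 fold change was -0.60 (SE 0.058, edgeR adjusted p = 3.1e-05), the largest fall after BYSL among the 10 genes, and 4.29% of all tested genes lay lower. NOB1 had 43.0, 42.7 and 41.9 CPM in siBYSL 1 to 3 and 57.9, 52.8 and 58.0 CPM in siNC 1 to 3. The siBYSL values again lay in a narrow band, and the groups did not overlap. NOB1 fell by 0.40 on the log2 scale (SE 0.059, edgeR adjusted p = 0.000383).

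PNO1 lay further down than NOB1 within each siBYSL library. The log2 ratio of PNO1 to NOB1 counts, which does not depend on scaling, was -0.47, -0.40 and -0.41 in siBYSL 1 to 3 and -0.32, -0.17 and -0.22 in siNC 1 to 3. The mean difference was -0.19 without overlap between the groups. An exact two-sided permutation test gave p = 0.1, the smallest that 3 against 3 libraries can give (0.133 adjusted over the 4 ratios compared), so this design could not place it under the threshold. The 4 ratios were also chosen with earlier results of these data known. Their separation and their p are therefore descriptions and no independent support. The genes most like PNO1 by library, by the measure used for BYSL, were DCPS (difference 0.025), SYDE1 (0.028) and ADK (0.032), with log2 fold changes of -0.58, -0.58 and -0.60. ADK carried the guide heptamer in its 3′ UTR, and DCPS and SYDE1 did not.

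RRP12 and TSR1 also fell. RRP12 is a repeat protein that, in yeast, helps ribosomal subunits leave the nucleus. It had 32.8, 31.0 and 33.7 CPM in siBYSL 1 to 3 and 43.8, 43.8 and 43.4 CPM in siNC 1 to 3. The siNC libraries were almost equal and all lay above the siBYSL libraries. The log2 fold change was -0.43 (SE 0.058, edgeR adjusted p = 0.000256). TSR1 resembles a GTPase and covers the face of the particle where translation factors later bind.

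TSR1 had 145, 144 and 133 CPM in siBYSL 1 to 3 and 165, 163 and 159 CPM in siNC 1 to 3. The groups were separate, though by less than for the other genes that fell, with siBYSL 3 lowest. TSR1 fell by 0.21 on the log2 scale (SE 0.051, edgeR adjusted p = 0.00963). The call was lost with library totals in place of TMM factors (-0.13, edgeR adjusted p = 0.105) and without siNC 1 (-0.19, edgeR adjusted p = 0.0501). Exons of TSR1 overlap those of SRR on the other strand by 1146 bases. SRR, which had 323 counts on average in siBYSL and 361 in siNC, was lower as well (-0.24, edgeR adjusted p = 0.0287). The libraries keep strand but the strand setting of the counting is not given, so reads of the 2 genes may be mixed.

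**Figure D2:**
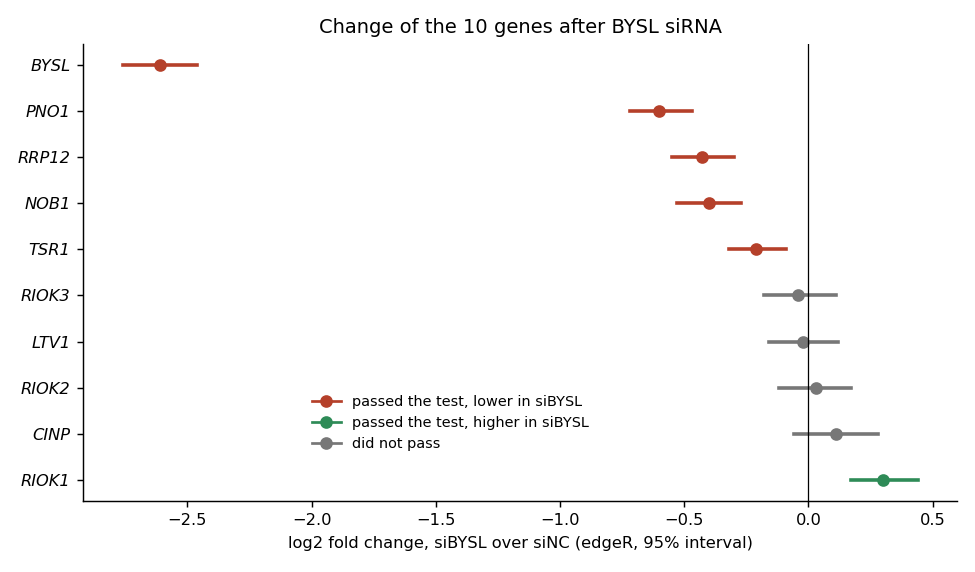
Log2 fold change of siBYSL over siNC (points) with 95% intervals from edgeR for the 10 genes, ordered from the lowest at the top to the highest. BYSL stands alone at -2.61, PNO1, RRP12, NOB1 and TSR1 lie between -0.60 and -0.21, the intervals of RIOK3, LTV1, RIOK2 and CINP include 0, and RIOK1 lies at 0.30.

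Of the 3 RIO kinases, atypical kinases that act on the pre-40S particle, RIOK1 rose and the other two did not pass the test. RIOK1, which joins the last cytoplasmic particle, had 39.9, 39.0 and 36.1 CPM in siBYSL 1 to 3 and 31.0, 31.6 and 30.7 CPM in siNC 1 to 3. Every siBYSL library lay above the siNC libraries. RIOK1 rose by 0.30 on the log2 scale (95% interval 0.17 to 0.44, edgeR adjusted p = 0.00297), to 123% of the siNC level. RIOK2, which binds earlier, in the nucleus, had 45.1, 46.2 and 41.8 CPM in siBYSL 1 to 3 and 46.5, 41.1 and 43.0 CPM in siNC 1 to 3. These values were interleaved, and the log2 fold change of 0.03 had an interval of -0.12 to 0.17 (edgeR adjusted p = 0.776). RIOK3, the third paralog, had 88.3, 82.6 and 73.7 CPM in siBYSL 1 to 3 and 83.4, 82.3 and 85.0 CPM in siNC 1 to 3. Its siBYSL libraries lay on both sides of the siNC libraries, and the log2 fold change of -0.04 had an interval of -0.18 to 0.11 (edgeR adjusted p = 0.705).

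Within libraries, the log2 ratio of RIOK1 to RIOK2 counts was -0.17, -0.24 and -0.21 in siBYSL 1 to 3 and -0.58, -0.38 and -0.49 in siNC 1 to 3, a mean difference of 0.27. The groups did not overlap, and the exact two-sided permutation p was 0.1, again the smallest possible (0.133 adjusted). The ratio of RIOK3 to RIOK2 averaged 0.88 ± 0.082 in siBYSL and 0.94 ± 0.086 in siNC on the log2 scale (SD, n = 3 each), with overlap (exact permutation p = 0.2). The RIOK3 to RIOK2 difference was within the spread of the libraries.

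LTV1 and CINP did not pass the test. LTV1 is a partner of bystin on the head of the particle, released there by casein kinase 1 phosphorylation. It had 45.9, 44.6 and 40.3 CPM in siBYSL 1 to 3 and 44.1, 44.5 and 43.9 CPM in siNC 1 to 3. The siNC libraries were nearly equal and the siBYSL libraries lay around them, with siBYSL 3 the lowest of all 6. The log2 fold change was -0.02, with a 95% interval of -0.16 to 0.12 (edgeR adjusted p = 0.852). The RRP12 to LTV1 log2 ratio of counts was -0.48, -0.53 and -0.25 in siBYSL 1 to 3 and -0.01, -0.02 and -0.02 in siNC 1 to 3. The mean difference was -0.41, with siBYSL 3 nearest to siNC (exact permutation p = 0.1, the smallest possible; 0.133 adjusted).

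CINP, named as a CDK2-interacting protein, also joins a complex with the ATPases AFG2A and AFG2B. It had 47.4, 49.4 and 55.1 CPM in siBYSL 1 to 3 and 51.0, 43.2 and 46.9 CPM in siNC 1 to 3. The groups overlapped, siBYSL 3 was the highest of all 6, and the log2 fold change was 0.11 with an interval of -0.06 to 0.28 (edgeR adjusted p = 0.311). Exons of CINP overlap those of ZNF839 on the other strand by 1380 bases. ZNF839 stood at 0.17 on the log2 scale (edgeR adjusted p = 0.0663). It had 43.8% of the count of CINP, so reads of these genes may be mixed too. Exons of PNO1 overlap RP11-474G23.1 by 279 bases and those of NOB1 overlap NQO1-DT by 429, on the other strand. These had 11.6% and 3.09% of the member's count. Genes that overlap exons of LTV1, RIOK1, RIOK2 and RRP12 had at most 1.78%.

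**Figure D3:**
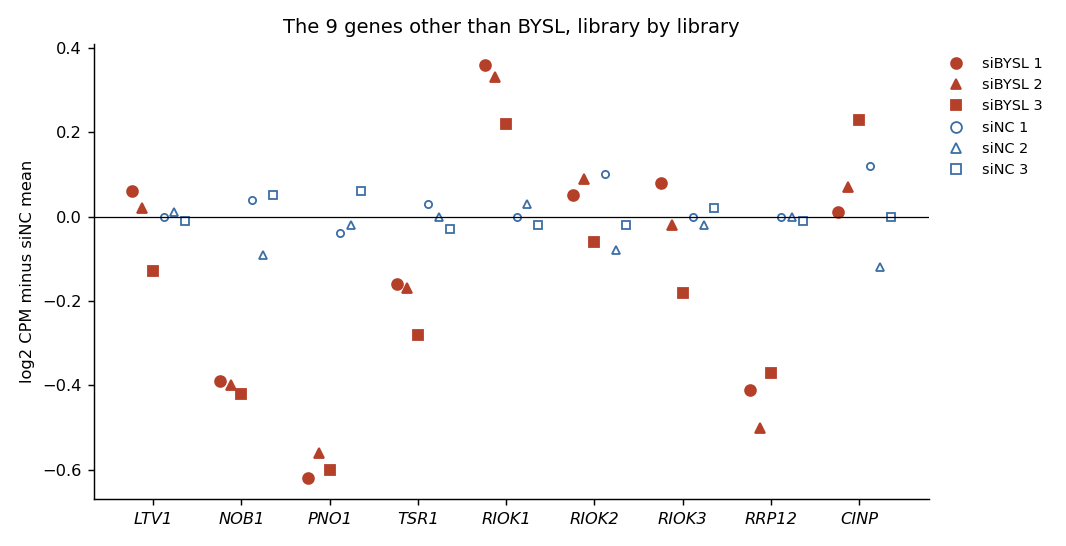
Log2 CPM of each library minus the siNC mean of the gene, for the 9 genes other than BYSL (filled, siBYSL 1 to 3; open, siNC 1 to 3). In LTV1, RIOK3 and TSR1 library siBYSL 3 (square) is the lowest, at -0.13, -0.18 and -0.28, and in CINP it is the highest at 0.23, while for NOB1 and PNO1 the 3 siBYSL libraries lie close together.

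Leaving out library siBYSL 3 changed no call among the members. Without it the log2 fold change was 0.04 for LTV1, 0.03 for RIOK3, 0.07 for RIOK2 and 0.04 for CINP, and all 4 remained uncalled. The 6 called genes kept their calls without it, with -2.66 for BYSL, -0.59 for PNO1, -0.45 for RRP12, -0.39 for NOB1, -0.17 for TSR1 and 0.34 for RIOK1. The median over the 9 other members, relative to siNC, was 0.01 and -0.02 in siBYSL 1 and 2 and -0.18 in siBYSL 3. The median of all tested genes was 0.01 in each. TMM scaling aligns the bulk of genes between libraries, so that median is no independent contrast.

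**Figure D4:**
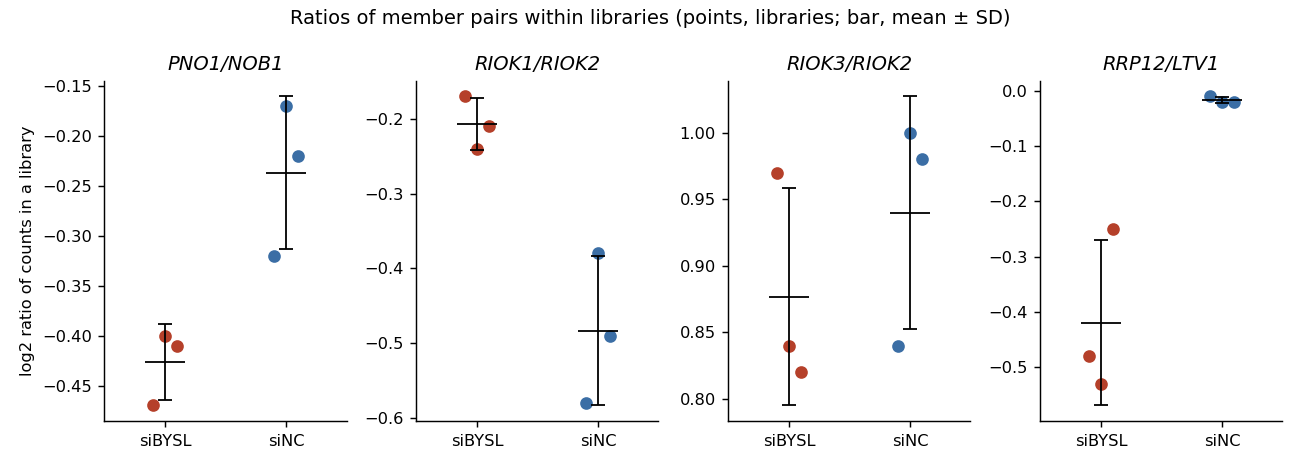
Log2 ratio of the counts of 2 members within each library, siBYSL left and siNC right, with mean and SD; vertical axes differ between panels and do not start at 0. PNO1/NOB1 and RRP12/LTV1 lie lower in siBYSL by 0.19 and 0.41, RIOK1/RIOK2 lies higher by 0.27, and RIOK3/RIOK2 overlaps.

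Divided by transcript length, the members ranked differently in the 2 groups. Per kb of the longest protein-coding transcript, BYSL took the first place of the 10 in siNC and the ninth in siBYSL, with 8.06 ± 0.46 CPM per kb in siBYSL and 49.3 ± 2.4 CPM per kb in siNC (SD, n = 3 each). In siNC the order from the top was BYSL, CINP, NOB1, TSR1, LTV1, PNO1, RIOK3, RIOK2, RIOK1 and RRP12, and 4 neighbouring pairs overlapped between libraries: BYSL and CINP, NOB1 and TSR1, PNO1 and RIOK3, and RIOK2 and RIOK1. In siBYSL the order was CINP, TSR1, NOB1, LTV1, RIOK3, PNO1, RIOK1, RIOK2, BYSL and RRP12, with overlap for NOB1 and LTV1, LTV1 and RIOK3, and PNO1 and RIOK1. RIOK1 stood at 13.7 ± 0.70 CPM per kb in siBYSL and 11.1 ± 0.18 in siNC, so by this length it overlapped RIOK2 in siNC and no longer in siBYSL. Per kb of all annotated exons they were already apart in siNC, with 9.47 to 9.78 for RIOK1 and 7.48 to 8.45 for RIOK2. RRP12 was lowest in both groups, at 7.26 ± 0.32 CPM per kb in siBYSL and 9.75 ± 0.051 in siNC. The place of CINP depends on the length used: with all annotated exons it was 9.47 CPM per kb in siBYSL and 8.80 in siNC, in place 7 and place 8. Other places changed too, as TSR1 was then first in siBYSL and above NOB1 in siNC.

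The genes share little in position, although BYSL, LTV1 and RIOK1 all lie on chromosome 6, at chr6:41921188-41933046, chr6:143843344-143863812 and chr6:7389496-7418037 on the plus strand of GRCh38. PNO1 lies at chr2:68157844-68176238, NOB1 at chr16:69741867-69754940, TSR1 at chr17:2322503-2337507, RRP12 at chr10:97356358-97426076, RIOK2 at chr5:97160867-97183260, RIOK3 at chr18:23452823-23486603 and CINP at chr14:102341102-102362916. Promoters (RefSeq, GRCh38.p14, 250 bases before to 50 after the start) were found for all but RRP12 and searched on both strands for 6 motifs. The E-box CACGTG, the letters that MYC and related factors bind, was in 3 of 9 (BYSL, LTV1 and PNO1) and in 7.26% of 35116 promoters. The NRF1 palindrome was in 1 of 9, NOB1, where it occurs at 2 places, and in 1.24% of all promoters. The ETS motif CCGGAAG was in 4 of 9 (LTV1, RIOK1, RIOK3 and TSR1) and in 10.3% of all. The GC box GGGCGG was in 8 of 9 and in 45.0% of all, the CCAAT box in 2 of 9 and in 34.6% of all, and the TATA box TATAAA in 1 of 9 and in 11.5% of all. The 35116 promoters were not matched to the members in expression or GC content, so these shares do not show enrichment. The E-boxes, in capitals, are shown because 2 of these genes were lower in siBYSL; in BYSL this is the direction of the siRNA itself, and LTV1 did not pass the test.
BYSL, chr6:41921515-41921544, plus strand: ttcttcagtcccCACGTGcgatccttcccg
PNO1, chr2:68157885-68157914, plus strand: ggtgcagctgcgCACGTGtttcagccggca
LTV1, chr6:143843354-143843383, plus strand: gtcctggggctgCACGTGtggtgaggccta

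The genes that work beside the 10 factors were read from 6 lists. Of 61 tested genes 22 fell and 2 rose, beside 18.4% and 18.5% of all genes, and 13 fell and 5 rose with library totals; without siBYSL 3, 38 fell. Of 21 late pre-40S neighbours 10 fell and 1 rose, with a median of -0.17; with library totals 6 fell and 3 rose. LRRC47, found on late human pre-40S particles, fell by 0.64 to 34.1 ± 2.3 CPM in siBYSL, against 53.3 ± 0.66 CPM in siNC (SD, n = 3 each; edgeR adjusted p = 3.0e-05). RAN, the GTPase that drives nuclear export, fell by 0.38, EIF1AD, a relative of eIF1A, by 0.32, and the 18S rRNA methyltransferase BUD23 by 0.31. LRRC47, RAN and EIF1AD carried the guide heptamer in their 3′ UTR, and the other 7 that fell did not. These were all 3 carriers in the list. Among all tested genes with a 3′ UTR, 513 of the 2729 that fell carried it. Of all 13013 such genes, those that fell included, 1521 (11.7%) carried it. The length of the 3′ UTR was not taken into account. XPO1, the exportin of the subunits, stood at -0.10 and did not pass (edgeR adjusted p = 0.353). PDCD2, a chaperone of a small-subunit protein, rose by 0.23.

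**Figure D5:**
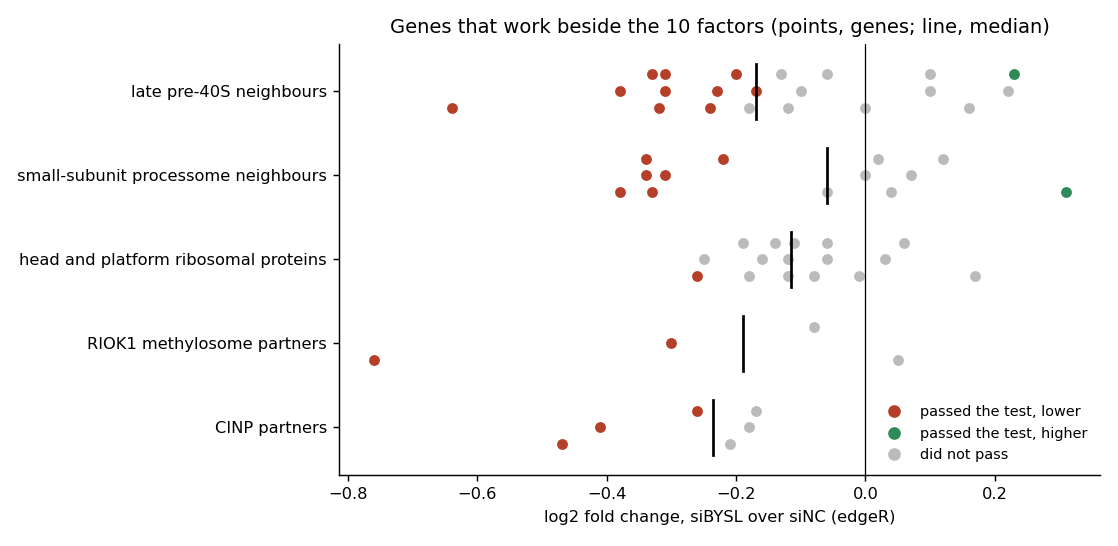
Log2 fold change of siBYSL over siNC for each tested gene (points) of 5 of the 6 lists, coloured by whether it passed the test, with the list median (line). Falls outnumber rises in the late pre-40S list (10 and 1) and the processome list (6 and 1), while 15 of the 16 head and platform genes did not pass.

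Of 13 neighbours of bystin on the earlier small-subunit processome, 6 fell and 1 rose (median -0.06), and with library totals 3 fell and 2 rose. UTP14A, an activator of the helicase DHX37, fell by 0.34, NGDN by 0.34, NOP14 by 0.33 and the RNA acetyltransferase NAT10 by 0.22, while DHX37 itself rose by 0.31 (edgeR adjusted p = 0.0123) to 23.9 ± 2.0 CPM in siBYSL, against 19.2 ± 1.4 CPM in siNC (SD, n = 3 each). With siNC 2 or siNC 3 left out, 0 genes of this list rose, so the DHX37 call rests on both. None of the 6 that fell held the guide heptamer. Of 16 genes for proteins of the head and platform, where bystin and its partners sit, RACK1 fell (-0.26, edgeR adjusted p = 0.0256) and 0 rose, with a median of -0.12. Without siBYSL 3 the count that fell was 11, and it was 0 with library totals, with upper-quartile factors, without siBYSL 1, without siBYSL 2, without siNC 1 and without siNC 3. RPS10 is uncertain, since copies or read-through transcripts can share its reads. Of the 15 genes of this list with a 3′ UTR searched, 4 (26.7%) carried the guide heptamer. With all 6 libraries 0 of the 15 fell, so carriers and the rest cannot be set apart by their calls. RACK1, the gene that fell, was not among the 15.

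PRMT5 and WDR77, 2 of 4 listed partners of RIOK1, were lower while RIOK1 was higher, and the other 2 did not pass the test. RIOK1 also brings substrates to the arginine methyltransferase PRMT5, which works with WDR77. Of 4 such genes 2 fell and 0 rose: PRMT5 had 121 ± 0.50 CPM in siBYSL and 149 ± 0.71 CPM in siNC (SD, n = 3 each; log2 fold change -0.30, edgeR adjusted p = 0.00051), and WDR77 had 27.7 ± 1.5 CPM in siBYSL and 46.9 ± 0.82 CPM in siNC (-0.76, edgeR adjusted p = 8.6e-06). CLNS1A stood at 0.05 and COPRS at -0.08 (edgeR adjusted p = 0.447 and 0.505). WDR77 carried the guide heptamer and PRMT5 did not. Of 6 partners of CINP 3 fell and 0 rose, namely CDK2 (-0.47), AFG2B (-0.41) and AFG2A (-0.26), none with the guide heptamer. Without siBYSL 3, 5 of these 6 fell. By the same rule, 18.4% of all genes tested fell and 18.5% rose with all 6 libraries. Of the trophinin complex, from which bystin got its name, TROAP was tested and stood at 0.02 (edgeR adjusted p = 0.85).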

How the data were processed

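The deposited table holds raw counts per gene for 6 poly(A) RNA-seq libraries, per the file headers; the libraries were strand-specific and read as 150 nt pairs, per the labels' protocols. Per the submitters' processing notes, the tools were HISAT2 and DESeq2 and the build GRCh38.p13, with no role stated. The sources used here give neither the counting tool nor its strand setting or annotation. Counts were filtered (filterByExpr), TMM-scaled and compared with the edgeR 4.0.16 quasi-likelihood test (robust, group only, R 4.3.3), with Benjamini-Hochberg adjustment over 16412 genes. SEs are the absolute log2 fold change over the square root of F; intervals are 95%. Alternatives used limma 3.58.1 and DESeq2 1.42.0, other scalings, filters, a replicate block and omission of each library. Ratios used counts + 0.5. Annotation came from GENCODE 29, with 28659 of 29538 identifiers matched. On simulated counts the test called 48.0% of genes changed 1.25-fold, 72.9% of those changed 1.5-fold and 0.0625% of unchanged genes. A gene that did not pass is therefore not shown to be unchanged. The members, lists and ratios were chosen with earlier results of these data known. All 10 members are named, and of each list up to 4 genes with the smallest p among those called, or the 1 with the smallest p where none was; XPO1, DHX37 and PDCD2 were added after their values were seen. Each p reflects the spread among cultures of a single line, 3 per group, at a common biological coefficient of variation of 0.0649.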

Additional observations from a re-analysis of the deposited data

How the results depend on the processing

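BYSL, PNO1, RRP12, NOB1 and RIOK1 kept their direction and call under all 14 alternatives; over those the log2 fold change ran from -2.66 to -2.53, -0.62 to -0.52, -0.45 to -0.35, -0.45 to -0.32 and 0.28 to 0.38. TSR1 lost its call with library totals (-0.13) and without siNC 1 (-0.19), so that 4 to 5 members were lower and 1 higher in each. With library totals 1989 genes were lower and 67.4% of calls were rises, against 3027 and 50.04% with TMM factors; 13 list genes were then lower and 5 higher, and with upper-quartile factors 4 were higher. Leaving out one library gave 17 to 38 list genes lower, 1 to 3 higher, and 2105 to 4075 genes lower. Signs near 0 turned: with library totals, upper-quartile factors and without siBYSL 3 the median of 9 members was 0.04, 0.01 and 0.03, LTV1 0.06, 0.03 and 0.04, and RIOK3 0.04, 0.01 and 0.03. Leaving out one library, LTV1 ran from -0.05 to 0.04 and RIOK2 from -0.01 to 0.08. RIOK2 was -4.0e-03 without siBYSL 2 and -0.01 without siNC 2. Leaving out one library, the median ran from -0.09 to 0.03. The highest level per kb was 5.05 times the lowest in siNC, or 8.69 times with all exons. With bases 2 to 7 in place of the heptamer, 2 members (PNO1 and TSR1) had a guide match in the 3′ UTR. The share of all genes with this shorter match was not counted. The cause of these changes was not tested. Low counts limit RPS10 and RCL1 most.

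For libraries of the same number, the deviations from the group mean had r over genes of -0.52, 0.28 and -0.04 for numbers 1 to 3. Across numbers, r was 0.52 for siBYSL 1 with siNC 2 and for siBYSL 3 with siNC 1, and -0.51 for siBYSL 3 with siNC 2. Of the siBYSL libraries, siBYSL 2 alone correlated best with its own number, so the numbers were not taken to pair the libraries. With a replicate block 2764 genes were lower and 2802 higher, and the 10 members kept their calls; BYSL stood at -2.61. With the block the differences in log2 ratio were -0.19 for PNO1/NOB1, 0.27 for RIOK1/RIOK2, -0.07 for RIOK3/RIOK2 and -0.41 for RRP12/LTV1. Every replicate number holds a library of each group, so these means equal those without the block by construction.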
